A study of Mus musculus with 10 samples.

Results

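The comparison described here sets the single MLL-AF9 leukemia stem cell line against the 4 untreated RH-RAS leukemia stem cell lines, so it uses 5 of the 10 expression arrays of the study. The arrays were chosen by the line names in the sample labels, and no measured value entered the choice. The MLL-AF9 line carries the fusion of the histone methyltransferase MLL with AF9 and is represented by 1 array. The RH-RAS lines, numbered 1 to 4, were established ex vivo by coexpression of DNMT3A with the R882H change and NRAS with the G12D change, and each has 1 array. The other 5 arrays hold 3 NUP98-JARID1A lines and RH-RAS lines 1 and 3 after 4 days in 1 µM SGC0946, a DOT1L inhibitor. All lines are murine and were grown in Opti-MEM with fetal bovine serum, mercaptoethanol and stem cell factor. The sources used here do not state the vectors, the mouse strain, the age of the cultures or any vehicle of the untreated cells. Only 1 clone or pool stands for MLL-AF9, so differences due to the fusion and differences due to that line cannot be told apart, and no test between the genotypes was made.

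MLL fusions such as MLL-AF9 join the chromatin-binding end of MLL to partners that recruit the super elongation complex and DOT1L, the methyltransferase that places a mark on histone H3 within transcribed genes. Their best known targets are the posterior Hoxa genes and Meis1, which keep progenitors in a self-renewing state. DNMT3A is a de novo DNA methyltransferase, its R882H form is frequent in acute myeloid leukemia, and the G12D form of NRAS signals constantly through the MAP kinase cascade.

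Levels are log2 intensities from Affymetrix arrays of the mouse transcriptome, normalised by the authors with RMA, and each gene is given by its brightest probe set. A gene was kept if its level lay above the array median in the MLL-AF9 line or, on average, in the RH-RAS lines, which left 11669 of 18194 genes. A call of higher or lower needed a gap of 1 log2 unit or more, a 2-fold difference, between MLL-AF9 and the average of the RH-RAS lines, with MLL-AF9 beyond every one of the 4 lines. By that rule 894 genes, or 7.66%, were higher in the MLL-AF9 line and 685 genes, or 5.87%, were lower, so that 13.5% of all kept genes were called. These shares are the background against which the counts in gene lists below are to be read. With the difference set at 2 or more, 335 genes were higher (2.87%) and 208 were lower (1.78%). The median difference of all kept genes was 0.08, and the median SD between the 4 RH-RAS lines was 0.12. Levels at the low end of an array are compressed by RMA, so the large differences below are understated where one side lies near background.

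**Figure D1:**
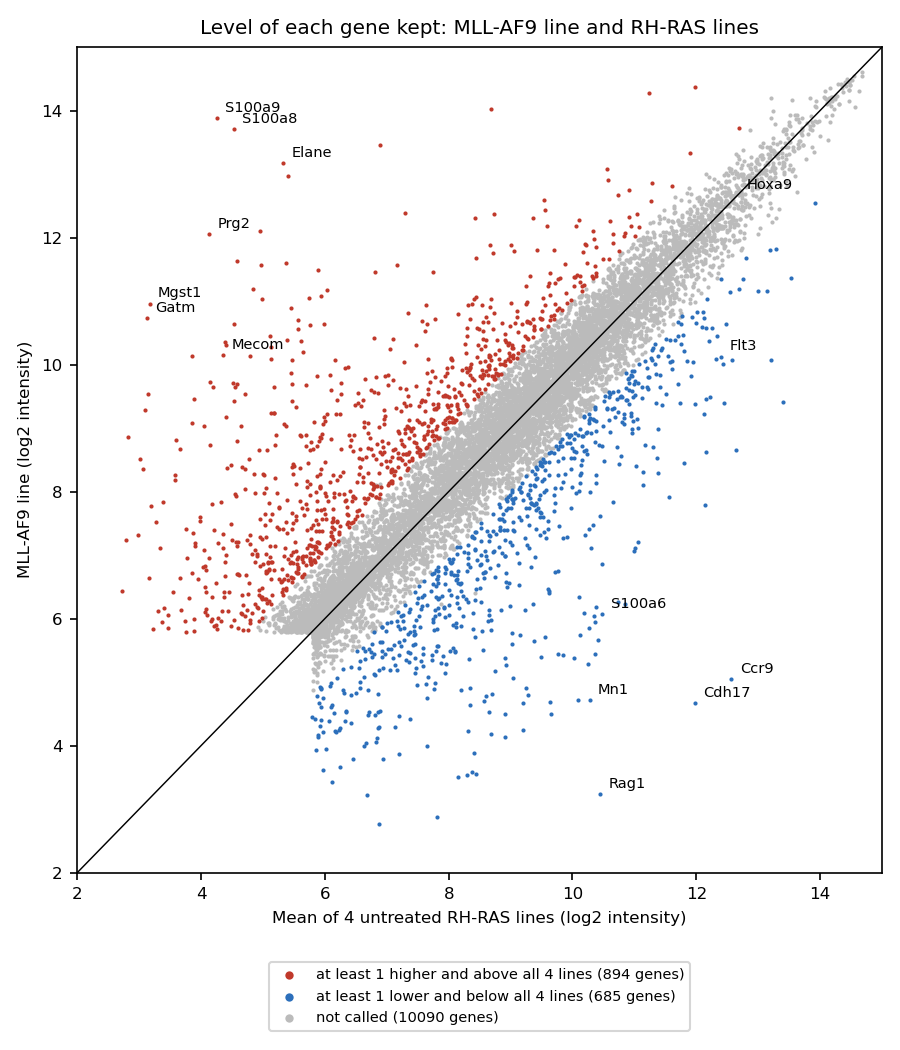
Level of each kept gene in the MLL-AF9 line (vertical axis, log2 intensity) against the mean of the 4 untreated RH-RAS lines (horizontal axis, log2 intensity), 1 dot per gene, with a diagonal of equal levels. The 894 genes higher and 685 genes lower in the MLL-AF9 line lie on both sides of the diagonal, with S100a9 and S100a8 far above it, Ccr9, Cdh17 and Rag1 far below it, and Hoxa9 on it.

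The MLL-AF9 array differed from each RH-RAS array by 1 or more in 1542 to 1705 genes, whereas pairs of RH-RAS lines differed by that much in 3 to 244 genes. MLL-AF9 and the NUP98-JARID1A lines were 1 or more apart in 1279 to 1426 genes. The leukocyte genes Ptprc, Coro1a, Laptm5, Vav1 and Lcp1 all lay above the array median on the 5 arrays, with a summed level of 58.9 in MLL-AF9 and 61.5 to 62.4 in RH-RAS. Of 4 measured neutrophil markers, 4 lay above the median in MLL-AF9 and 0 in all RH-RAS lines, with summed levels of 42.8 in MLL-AF9 against 20.6 to 21.4 in RH-RAS. The 3 measured B cell markers were below the median in both genotypes. Of 5 fibroblast markers, 1 lay above the median in MLL-AF9 (Pdgfrb, at 5.98) and 0 in all RH-RAS lines. RH-RAS line 4 stood nearest to MLL-AF9 in 381 of the 894 higher genes (42.6%), in 362 of the 685 lower genes (52.8%) and in 33.1% of the genes not called. In bulk RNA, a higher share of cells of one type and more RNA per cell cannot be told apart.

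The genes that stood highest in the MLL-AF9 line include many of the granulocyte series. S100a9, a subunit of the neutrophil protein calprotectin, was at 13.88 in MLL-AF9, against 4.55, 4.06, 3.98 and 4.42 in RH-RAS lines 1 to 4, a difference of 9.63. S100a8, its partner subunit, was at 13.70 in MLL-AF9, against 4.63, 4.54, 4.46 and 4.48 in the RH-RAS lines (difference 9.17). Both lay below the array median in every RH-RAS line, and the spread among those lines (SD 0.28 for S100a9 and 0.08 for S100a8) was a small fraction of the gap. Elane, neutrophil elastase, stood at 13.18 in MLL-AF9, against 5.27, 5.25, 5.40 and 5.40 in RH-RAS. Prg2, the major basic protein of eosinophils, reached 12.05 in MLL-AF9, against 4.28, 4.21, 3.95 and 4.05 in RH-RAS. Ms4a3, a membrane protein of granulocyte and monocyte progenitors, reached 12.97 in MLL-AF9, against 5.65, 5.0, 5.16 and 5.79 in RH-RAS. None of the 4 RH-RAS lines came within 7 log2 units of MLL-AF9 for Elane, Prg2 or Ms4a3. The other genes among the 15 highest were Mgst1, a membrane glutathione transferase (difference 7.79), Gatm, an enzyme of creatine synthesis (7.60), Ifitm3, an antiviral membrane protein (7.15), Tfec, a transcription factor of the Mitf family (7.06), and Pglyrp1, a granule protein that binds bacterial peptidoglycan (6.60). They were followed by F13a1, a clotting factor subunit made by monocytes and megakaryocytes (6.56), the prostaglandin-degrading enzyme Hpgd (6.39), the clotting factor F10 (6.36), the hepatocyte growth factor receptor Met (6.29) and the granule protein Ngp (6.24). The dimmer probe sets of Mgst1, Met, Hpgd and F10 differed by less, at 0.25 for Mgst1, 0.99 for Met, 2.57 for Hpgd and 4.16 and 5.31 for F10. Most of the 15 highest genes also lay above the array median in every NUP98-JARID1A line, the exceptions being Prg2, Gatm and Hpgd. S100a9 was at 12.93 to 14.52 there, S100a8 at 12.78 to 14.28 and F13a1 at 12.98 to 13.83. Prg2 was low there, at 4.18 to 4.56. Elane (7.65 to 11.49), Gatm (3.25 to 9.68) and Hpgd (3.87 to 11.97) varied between those lines.

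The genes that stood lowest in the MLL-AF9 line include lymphoid genes. Ccr9, the chemokine receptor that guides cells to thymus and gut, was at 5.04 in MLL-AF9, against 12.54, 12.78, 12.83 and 12.12 in RH-RAS lines 1 to 4, a difference of −7.52. Cdh17, a cadherin of gut and early B lineage cells, was at 4.67 in MLL-AF9, against 11.95, 11.70, 12.16 and 12.12 in RH-RAS (−7.31). Rag1, which cuts antigen receptor genes, was at 3.24 in MLL-AF9, against 10.18, 10.53, 10.14 and 10.95 in RH-RAS (−7.21). All 4 RH-RAS lines held these genes at high levels, and the MLL-AF9 levels were below the array median. Mn1, a transcriptional coactivator that transforms myeloid progenitors, was at 4.71 in MLL-AF9, against 10.31, 10.24, 10.56 and 10.00 in RH-RAS (−5.57). Gzma, a cytotoxic granule protease, was at 4.50 in MLL-AF9, against 10.16, 10.50, 10.02 and 7.91 in RH-RAS (−5.15). Line 4 held Gzma at the lowest level of the RH-RAS lines, as it did Trib2, a pseudokinase that degrades C/EBP proteins, which was at 4.68 in MLL-AF9 and at 10.11, 9.84, 10.45 and 8.13 in RH-RAS. Ddx4, a germline RNA helicase, was at 2.87 in MLL-AF9, against 7.07, 7.34, 7.0 and 9.83 in RH-RAS, with line 4 the highest. The remaining genes of the 15 lowest were Il18r1, a cytokine receptor chain (−5.36), the membrane protein Emp1 (−4.96), Gcsam, a signalling protein of germinal center B cells (−4.95), Arpp21 (−4.92), Cpeb1, which controls mRNA tails (−4.88), Nlrc3, a cytoplasmic receptor of the NLR family (−4.80), Cd163, the hemoglobin scavenger receptor (−4.76), and Vegfc, a growth factor of lymphatic vessels (−4.75). For Arpp21, the 4 dimmer probe sets differed by −2.35 to −0.36, and the median of all 5 was not called. Dimmer probe sets also differed by less or the other way for Emp1 (0.13), Nlrc3 (−0.92), Trib2 (−3.48 and 0.44) and Ccr9 (−6.92 to −0.63). Several of the 15 lowest genes also stood low in the NUP98-JARID1A lines. Rag1 was at 3.22 to 3.85 there, Ccr9 at 4.15 to 6.55 and Mn1 at 5.10 to 6.35. Others stood above MLL-AF9 in those lines, with Cdh17 at 5.94 to 8.85, Ddx4 at 5.95 to 8.21 and Emp1 at 7.86 to 9.25.

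**Figure D2:**
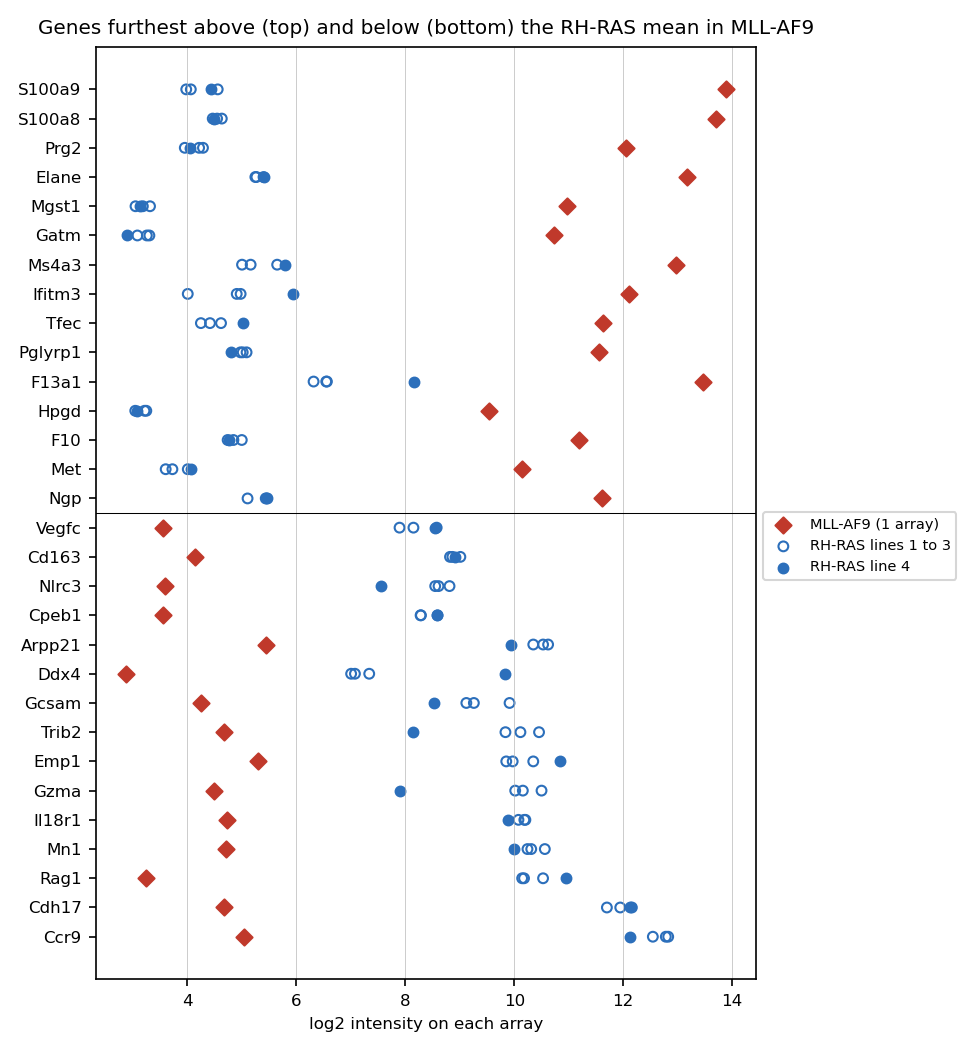
Log2 intensity of the 15 genes with the highest and the 15 with the lowest difference, with a diamond for MLL-AF9, open circles for RH-RAS lines 1 to 3 and a filled circle for line 4. For S100a9 the MLL-AF9 point stands at 13.88 and the RH-RAS points at 3.98 to 4.55, while for Ccr9 the MLL-AF9 point stands at 5.04 and the RH-RAS points at 12.12 to 12.83.

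The primary granule list, named for granules formed at the promyelocyte stage, held 7 higher and 0 lower genes of 12 kept, with a median difference of 2.46. Of the 12, 2 were kept through MLL-AF9 alone, and the median over the other 10 was 1.47. The background share of higher genes is 7.66%. The called genes were Mpo, Elane, Prtn3 and Ctsg, and also Ms4a3, Hp and Lyz1, which are not confined to these granules. Ctsg, cathepsin G, was at 14.02 in MLL-AF9, against 8.17, 8.04, 8.56 and 9.98 in RH-RAS. Mpo, myeloperoxidase, was already high in the RH-RAS lines, with 14.36 in MLL-AF9 against 11.86, 11.72, 11.91 and 12.43 in RH-RAS. Prtn3, proteinase 3, was at 14.27 in MLL-AF9, against 10.86, 11.02, 10.87 and 12.20 in RH-RAS. For Ctsg, Mpo and Prtn3 the nearest of the RH-RAS lines was line 4. The promoters of 5 of these genes, chosen after the values were seen because their differences are among those that set the lines apart, are printed here from 250 bases before to 50 after the gene start, 5′ to 3′ on the strand of the gene, from RefSeq on GRCm38.p6. Their positions are chr10:79886062-79886361 for Elane and chr10:79879417-79879716 for Prtn3, neighbours on the plus strand, chr11:87793534-87793833 for Mpo on the plus strand, chr14:56102525-56102824 for Ctsg on the minus strand and chr19:11640802-11641101 for Ms4a3 on the minus strand. Capitals mark matches to 3 short motifs searched on both strands, GAGGAAGT of the PU.1 type, TGTGGT of the RUNX type and TTNCNNAA of the C/EBP type.
Elane: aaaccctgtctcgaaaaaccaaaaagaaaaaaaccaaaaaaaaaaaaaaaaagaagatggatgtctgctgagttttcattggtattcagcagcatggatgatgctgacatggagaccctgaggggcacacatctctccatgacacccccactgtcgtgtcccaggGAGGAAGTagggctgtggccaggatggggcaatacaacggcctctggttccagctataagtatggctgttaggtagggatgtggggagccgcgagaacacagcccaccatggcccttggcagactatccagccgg
Prtn3: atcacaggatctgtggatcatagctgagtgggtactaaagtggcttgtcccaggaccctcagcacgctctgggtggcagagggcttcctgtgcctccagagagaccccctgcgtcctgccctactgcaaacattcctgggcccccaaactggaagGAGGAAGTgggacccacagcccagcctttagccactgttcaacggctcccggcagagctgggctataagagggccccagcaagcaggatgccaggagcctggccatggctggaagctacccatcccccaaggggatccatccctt
Mpo: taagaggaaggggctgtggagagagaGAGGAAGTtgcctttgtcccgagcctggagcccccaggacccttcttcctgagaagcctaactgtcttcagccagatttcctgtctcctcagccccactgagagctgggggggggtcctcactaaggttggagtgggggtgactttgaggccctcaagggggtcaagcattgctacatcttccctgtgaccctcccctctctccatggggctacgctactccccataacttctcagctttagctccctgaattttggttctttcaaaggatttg
Ctsg: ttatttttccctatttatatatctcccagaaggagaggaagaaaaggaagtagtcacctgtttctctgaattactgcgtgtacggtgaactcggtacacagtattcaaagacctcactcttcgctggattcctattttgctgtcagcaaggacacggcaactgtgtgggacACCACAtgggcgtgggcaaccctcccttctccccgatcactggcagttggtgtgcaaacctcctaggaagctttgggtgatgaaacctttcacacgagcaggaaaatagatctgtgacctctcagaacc
Ms4a3: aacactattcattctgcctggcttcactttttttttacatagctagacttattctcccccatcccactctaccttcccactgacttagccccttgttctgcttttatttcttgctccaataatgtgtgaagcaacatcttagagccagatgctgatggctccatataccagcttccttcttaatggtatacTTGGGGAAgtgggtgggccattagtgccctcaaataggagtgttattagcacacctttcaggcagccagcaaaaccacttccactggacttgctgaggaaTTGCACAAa
GAGGAAGT began 85 bases before the start of Elane, 95 before that of Prtn3 and 224 before that of Mpo. Ctsg held the RUNX type motif on the opposite strand, 79 bases before its start, and Ms4a3 held TTGGGGAA 59 bases before its start and TTGCACAA after it. Among all 27025 RefSeq promoters of that length, 3.28% hold GAGGAAGT, 16.9% TGTGGT and 40.7% TTNCNNAA. GAGGAAGT was in 4.88% of the promoters of the genes higher in MLL-AF9, in 5.19% of those of the lower genes and in 2.9% of those of the genes not called, so it was no more frequent on the higher side than on the lower side. TTNCNNAA was in 40.3% of the promoters of higher genes, 27.7% of those of lower genes and 30.3% of those not called. These are matches of letters, and binding was not measured.

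Genes of later neutrophil maturation were higher in 15 of 16 kept, 0 were lower and the median was 4.83 over the kept genes and 4.56 over all 18 measured. Of the 16, 13 were kept through MLL-AF9 alone and so had to stand on the higher side there, though not by the 1 log2 unit of a call. The 3 genes above the median in both genotypes had a median of 1.18. Beside S100a8, S100a9, Ngp and Pglyrp1, the list held the cystatin gene Stfa2l1 (6.05), the collagenase Mmp8 (5.33), Wfdc21 (5.0), the cathelicidin Camp (4.98), lipocalin Lcn2 (4.68) and Chil3 (4.45). Ltf, the lactoferrin of secondary granules, differed by 1.40 and was at 6.97 in MLL-AF9. Mmp9, the gelatinase of the last granules, was the kept gene not called.

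Transcription factors of myeloid differentiation were higher in 9 of 14 kept genes and lower in 1, with a median of 1.60. Of the 14, 3 were kept through MLL-AF9 alone and so had to stand on the higher side there, though not by enough for a call. Over the 11 genes above the median in both genotypes, 6 were higher and 1 lower, with a median of 1.34. Cebpa, which directs granulocyte and monocyte commitment, was at 10.67 in MLL-AF9, against 8.52, 8.48, 8.65 and 8.59 in RH-RAS. Cebpb, used in emergency granulopoiesis, was at 12.27 in MLL-AF9, against 9.86, 9.70, 10.22 and 10.66 in RH-RAS. Cebpd (2.38), Gfi1, a repressor needed for neutrophils (2.04), Spi1, which encodes PU.1 (1.34), Klf4 (1.66), Maf (1.54), Nfe2 (2.63) and Id1 (3.95) were higher as well. The lower one was Jun, an AP-1 subunit (−1.70). Irf8, which steers progenitors to monocytes, and Runx1 were not called, at 0.95 and −0.36.

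Among receptors that read these lineage signals, 6 of 24 kept genes were higher and 4 lower, with a median of 0.03. Csf2rb, the shared chain of the GM-CSF receptor, was at 11.68 in MLL-AF9, against 8.18, 8.45, 7.95 and 9.17 in RH-RAS. Csf2ra, its specific chain, was at 10.71 in MLL-AF9, against 7.80, 7.77, 7.95 and 7.62 in RH-RAS. Csf3r, the G-CSF receptor, was at 8.72 in MLL-AF9, against 6.31, 6.27, 6.34 and 6.68 in RH-RAS. By the brightest probe sets, all 4 RH-RAS lines were below MLL-AF9 by over 2 log2 units for each of these 3 chains. The dimmer probe set of Csf2ra differed by 0.80. Csf2rb2, Il6ra and Tnfrsf1b were the other higher genes, while Il18r1, Il17ra, Il1r1 and the signalling inhibitor Socs2 were lower.

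The monocyte and macrophage list held 10 higher and 2 lower genes of 23 kept, with a median of 0.96. Of the 23, 3 were kept through MLL-AF9 alone and so had to stand on the higher side there, though not by enough for a call. Over the 20 genes above the median in both genotypes, 8 were higher and 2 lower, with a median of 0.89. Csf1r, the receptor for M-CSF, was at 10.95 in MLL-AF9, against 7.87, 7.77, 7.71 and 10.13 in RH-RAS, so line 4 stood close to MLL-AF9 and far from the other RH-RAS lines. Lyz2, the myeloid lysozyme, was at 12.43 in MLL-AF9, against 9.32, 9.40, 8.74 and 10.78 in RH-RAS. F13a1 was at 13.46 in MLL-AF9, against 6.55, 6.56, 6.32 and 8.15 in RH-RAS. Clec7a, the fungal glucan receptor dectin, was at 10.06 in MLL-AF9, against 5.84, 5.21, 5.20 and 5.63 in RH-RAS. Ms4a6d (3.50), Adgre1, a macrophage surface receptor (2.44), Cd300a (2.34) and the endotoxin receptor Tlr4 (1.93) were also higher, whereas Cd68 (−1.03) and Fcgr1 (−1.36) were lower. The 3 probe sets of Ms4a6d differed by 0.08 to 3.50. The 5 fixed monocyte markers summed to 39.3 in MLL-AF9, against 33.1 to 33.4 in RH-RAS lines 1 to 3 and 41.5 in line 4. The part of that difference between RH-RAS lines in the results above was not tested.

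Antigen presentation genes and dendritic cell genes were called mostly on the lower side, with 1 higher and 5 lower of 11 kept and a median of −0.76. Over the 10 genes above the median in both genotypes, 1 was higher and 4 lower, with a median of −0.71. H2-Aa, a class II chain, was at 6.57 in MLL-AF9, against 8.60, 8.69, 7.84 and 7.70 in RH-RAS. Cd74, the class II invariant chain (−1.35), H2-Eb1 (−1.13), the integrin Itgax (−1.64) and Ccr9 were lower, and H2-DMa was higher by 1.05.

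Among mast cell and basophil genes, 5 of 6 kept were higher and 0 lower, but the median of 2.14 over those 6 was 0.17 over all 12 measured. Of the 6, 2 were kept through MLL-AF9 alone (Mcpt8 and Ms4a2) and 1 through RH-RAS alone. Over the 3 genes above the median in both genotypes, 3 were higher, with a median of 2.47. Mcpt8, a basophil protease, was at 9.34 in MLL-AF9, against 5.68, 5.49, 5.67 and 5.30 in RH-RAS. Hdc, the histamine-forming enzyme, was at 8.71 in MLL-AF9, against 5.75, 5.94, 6.0 and 5.78 in RH-RAS. Cpa3 (1.38), Ms4a2 (1.81) and the transcription factor Mitf (2.47) were the others. The mast cell markers Fcer1a and Mcpt4 lay below the median in both genotypes, at 3.25 and 4.27 in MLL-AF9.

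Some genes set the MLL-AF9 line apart from all 9 other arrays, the 3 NUP98-JARID1A and the treated RH-RAS ones included. By at least 1 log2 unit, 84 genes lay above all of them (0.72%) and 100 lay below all of them (0.857%). Prg2 lay 7.49 above the next array. Epx, eosinophil peroxidase, was at 9.70 in MLL-AF9, against 4.33 to 4.82 in NUP98-JARID1A and 4.21, 4.47, 4.75 and 4.61 in RH-RAS. Prg3, a relative of Prg2, was at 8.27 in MLL-AF9, against 5.16 to 5.24 in NUP98-JARID1A and 5.18, 5.23, 4.72 and 4.90 in RH-RAS. The 3 eosinophil granule genes were set side by side after their values were seen, and all 9 other arrays held them near background. Grb10, an adaptor that dampens receptor kinases, lay 4.02 above the next array by 1 of its 3 probe sets, the other 2 differing from RH-RAS by 0.75 and 0.77. Maoa, a monoamine oxidase, Rab38, a vesicle GTPase, and Cldn12, a claudin, were also among the genes that stood furthest above. On the lower side, S100a6, a calcium-binding protein, was at 6.07 in MLL-AF9, against 11.03 to 11.95 in NUP98-JARID1A and 10.51, 10.35, 11.02 and 10.06 in RH-RAS. S100a4, its neighbour in the S100 family, was at 8.65 in MLL-AF9, against 12.43 to 13.09 in NUP98-JARID1A and 12.72, 12.59, 12.85 and 12.38 in RH-RAS. Emp1, by its brighter probe set, was at 5.29 in MLL-AF9, against 7.86 to 9.25 in NUP98-JARID1A and 9.85, 9.97, 10.35 and 10.84 in RH-RAS. Members of the S100 family thus stood at both ends of the comparison. The sialyltransferase St6gal1, the calpain Capn2, Basp1, the desaturases Scd1 and Fads2, the sugar phosphate transporter Slc37a3 and the receptor Gpr18 also lay below all other arrays.

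**Figure D3:**
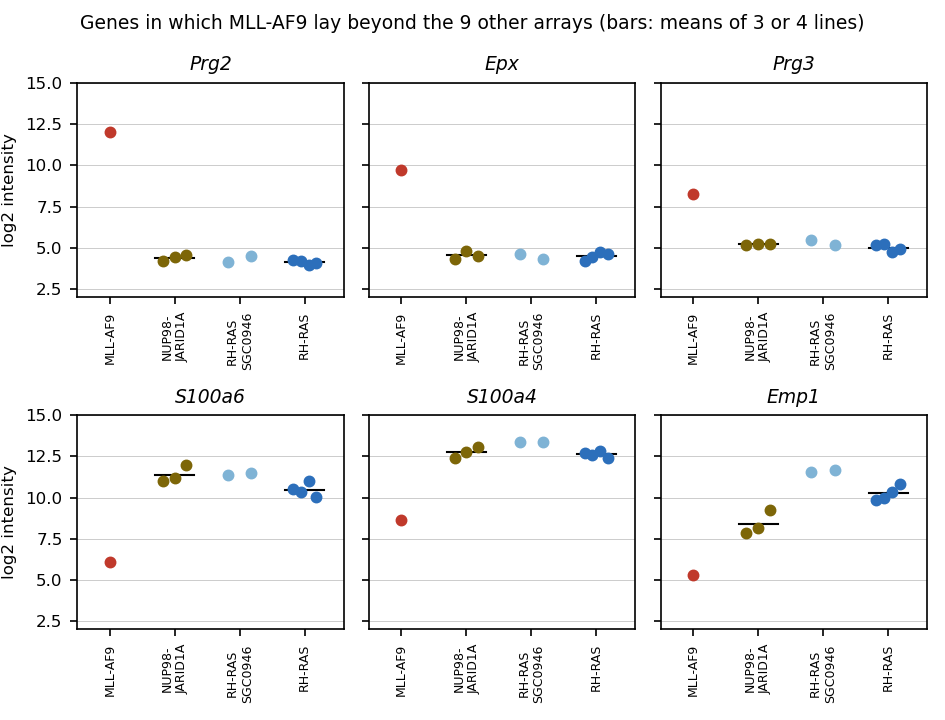
Log2 intensity (vertical axes) on each of the 10 arrays by group for Prg2, Epx and Prg3, which lay above all 9 other arrays in the MLL-AF9 line, and for S100a6, S100a4 and Emp1, which lay below them, with bars at the means of the NUP98-JARID1A and untreated RH-RAS lines. Prg2, Epx and Prg3 stand at 12.05, 9.70 and 8.27 in MLL-AF9 with all other arrays near background, and S100a6 stands at 6.07 in MLL-AF9 with all other arrays at 10.06 or more.

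Several lymphoid genes, those of antigen receptor recombination among them, were lower in the MLL-AF9 line. In the B lymphoid list 6 of 9 kept genes were lower and 0 higher, with a median of −3.61 over the kept genes and −0.31 over all 15 measured. Of the 9, 5 were kept through RH-RAS alone and so had to stand on the lower side in MLL-AF9, though not by enough for a call. Over the 4 genes above the median in both genotypes, 1 was lower and the median turned to 0.13. The 6 were the recombinase genes Rag1 and Rag2 (−4.34), Dntt, the polymerase that adds bases at recombination joints (−3.66), Il7r, the receptor for the lymphoid growth factor (−3.61), the repressor Bach2 (−3.71) and the adaptor Blnk (−1.68). The 3 probe sets of Bach2 differed by −3.71 to −0.17. Dntt was at 5.27 in MLL-AF9, against 9.27, 9.10, 9.46 and 7.89 in RH-RAS. Rag2 was at 4.90 in MLL-AF9, against 9.16, 9.30, 9.0 and 9.52 in RH-RAS. The defining B cell markers Cd79a, Pax5 and Ms4a1 lay below the median in both genotypes. In the T and NK list, 5 of 14 kept genes were lower and 0 higher, with a median of −0.54, and 7 of the 14 were kept through RH-RAS alone. Over the 6 genes above the median in both genotypes, 0 were lower and the median turned to 0.17, and against line 4 alone the median of the list was 0.048. Cd3g, a chain of the T cell receptor complex, was at 4.00 in MLL-AF9, against 8.41, 8.04, 8.60 and 5.56 in RH-RAS, with line 4 the lowest of the RH-RAS lines. Gata3 (−2.76), Klrd1 (−2.34) and perforin, Prf1 (−1.67), were the others beside Gzma.

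The Hoxa cluster, the hallmark target of MLL fusions, held 1 called gene, Hoxa10. Of 7 kept genes 0 were higher and 1 lower, beside background shares of 7.66% higher and 5.87% lower. A list of 7 is too short to tell these counts from those shares. The median was −0.48 over the kept genes and −0.24 over all 9 measured. Hoxa9, which drives self-renewal in myeloid leukemia, was at 12.67 in MLL-AF9, against 12.78, 12.76, 12.83 and 12.37 in RH-RAS. The MLL-AF9 value lay within the range of the RH-RAS lines and differed from their mean by −0.019. Hoxa7 was at 9.44 in MLL-AF9, against 9.74, 9.72, 9.53 and 9.35 in RH-RAS, and Hoxa5 was at 8.60 in MLL-AF9, against 9.20, 9.33, 9.55 and 8.45 in RH-RAS. Both lay within the RH-RAS range. Hoxa10 was at 8.93 in MLL-AF9, against 10.00, 10.37, 10.31 and 10.26 in RH-RAS, below all 4 lines, while its second probe set was near background on all 5 arrays and differed by 0.19, and the median of both was not called. Of the Hoxb cluster 2 of 9 measured genes were kept, Hoxb3 and Hoxb4, and 0 were called.

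Partners and other targets in the same programme were divided, with 4 of 18 kept genes higher, 4 lower and a median of −0.17. Of the 18, 2 were kept through MLL-AF9 alone (Pbx3 and Mecom) and 1 through RH-RAS alone (Mn1). Over the 15 genes above the median in both genotypes, 2 were higher and 3 lower, with a median of −0.21. Meis1, the DNA-binding partner of Hoxa9, was at 7.70 in MLL-AF9, against 8.05, 8.14, 7.96 and 8.07 in RH-RAS, and was not called. Pbx3, another cofactor, was at 6.80 in MLL-AF9, against 5.45, 5.72, 5.48 and 5.63 in RH-RAS, a difference of 1.23. Its other probe set, dimmer on average over the 10 arrays, differed by 4.68. Mecom, which encodes the stem cell factor EVI1, was at 10.15 in MLL-AF9, against 4.26, 4.44, 4.33 and 4.41 in RH-RAS. That value rests on 1 of 3 probe sets, since the others were near background and differed by 0.50 and 0.68. Flt3, the receptor tyrosine kinase of early progenitors, was at 10.13 in MLL-AF9, against 12.45, 12.48, 12.29 and 12.38 in RH-RAS. Id2, an inhibitor of E proteins, was at 9.38 in MLL-AF9, against 11.82, 12.12, 12.22 and 11.73 in RH-RAS. Zeb2 (1.99) and Lmo2 (1.64) were higher, and Bcl2 (−1.90) and Mn1 were lower. Mycn, a MYC family oncogene, was at 12.87 in MLL-AF9 and 12.61 to 13.22 in RH-RAS by its brightest probe set, within the range, but its other 2 probe sets differed by −4.95 and −1.75, with MLL-AF9 below all 4 lines in both. The 3 probe sets of Mycn thus shared a sign and differed in size, and the brightest one was not called. Myb (0.16), Cdk6 (−0.12) and Mef2c (−0.94) were not called.

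**Figure D4:**
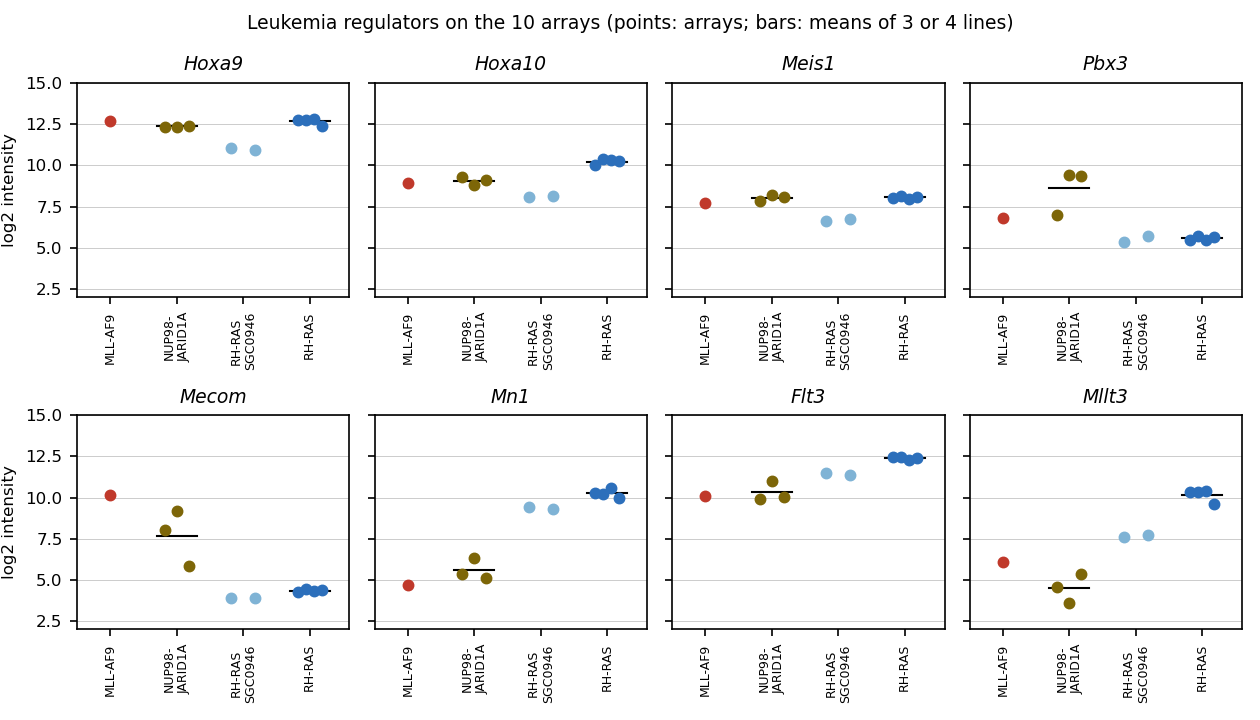
Log2 intensity (vertical axes) of Hoxa9, Hoxa10, Meis1, Pbx3, Mecom, Mn1, Flt3 and Mllt3 on each of the 10 arrays by group, with bars at the means of the NUP98-JARID1A and untreated RH-RAS lines. Hoxa9 stands at 12.67 in MLL-AF9 and 12.37 to 12.83 in RH-RAS, while Mllt3 stands at 6.09 in MLL-AF9 and 9.63 to 10.42 in RH-RAS.

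In the machinery that reads and extends the MLL signal, 1 of 20 kept genes was higher and 3 lower, with a median of −0.10, beside background shares of 7.66% higher and 5.87% lower. Dot1l was at 8.69 in MLL-AF9, against 8.24, 8.24, 8.55 and 8.37 in RH-RAS, above all 4 lines by less than 1 and not called. Mllt3, which encodes the mouse AF9, was at 6.09 in MLL-AF9, against 10.32, 10.36, 10.42 and 9.63 in RH-RAS, and its 3 probe sets differed by −4.09, −4.07 and −3.14. It is not known here whether these probe sets can read the transcript of the fusion, so the level does not check the label. Kmt2a, which encodes MLL, differed by 0.58 and −0.61 in its 2 probe sets. Aff3, a subunit of super elongation complexes, was at 9.54 in MLL-AF9, against 11.79, 11.68, 11.74 and 10.86 in RH-RAS. Ell2, an elongation factor of the same complex, differed by 2.06 in 1 probe set and by −0.34 in another near background, and Cbx8 by −1.08 in 1 probe set and −0.70 in the other.

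Genes that write and erase DNA methylation were divided, with 2 of 14 higher, 2 lower and a median of −0.07. Dnmt3a was at 8.69 in MLL-AF9, against 10.05, 9.81, 10.37 and 9.75 in RH-RAS. Its 5 probe sets differed by −1.31 to 0.32, so the call rests on the probe set chosen, and it is not known here whether they read the introduced DNMT3A. Dnmt3l, the catalytically inactive partner of Dnmt3a, was at 7.86 in MLL-AF9, against 5.78, 5.48, 5.58 and 5.53 in RH-RAS. Tet1, a methylcytosine oxidase, was at 6.49 in MLL-AF9, against 8.95, 9.09, 9.07 and 8.67 in RH-RAS, and its other 3 probe sets differed by −0.99 to −0.21. Idh1, which supplies the cofactor of TET enzymes, was higher by 1.19. Of the Polycomb genes, 0 of 19 were higher and 4 lower, namely Cbx2 (−1.62), Asxl1 (−1.15, with another probe set at 0.12), Cbx8 and Bmi1 (−1.03), and the median was −0.09.

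Stem and progenitor genes were called in both directions, 6 higher and 4 lower of 16, with a median of 0.07 over the 16 and −0.012 over the 14 above the array median in both genotypes. Over those 14, 4 were higher and 4 lower. Prom1, a stem cell surface protein, was at 9.65 in MLL-AF9, against 4.45, 4.73, 4.73 and 4.31 in RH-RAS. Gata2, a factor of stem and mast cells, was at 9.54 in MLL-AF9, against 6.32, 6.24, 6.26 and 6.20 in RH-RAS. Erg, an ETS factor of stem cells, was at 8.90 in MLL-AF9, against 5.68, 5.66, 6.24 and 6.23 in RH-RAS. Ikzf2 was at 7.84 in MLL-AF9, against 4.46, 4.03, 4.43 and 4.34 in RH-RAS, by 1 of 3 probe sets. Eng (1.65) and Kit, the receptor for stem cell factor (1.01), were higher. Cd34 (−1.49), Cd93 (−1.14), Gfi1b, an erythroid and megakaryocytic repressor (−2.23), and Bmi1 were lower.

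The RAS-MAPK feedback list, made of genes that MAP kinase signalling switches on and that restrain or relay it, held 1 higher and 7 lower genes of 18 kept, with a median of −0.78 over the kept genes and −0.34 over all 21 measured. Spry4 was kept through RH-RAS alone. Over the 17 genes above the median in both genotypes, 1 was higher and 6 lower, with a median of −0.73. Dusp6, the phosphatase that inactivates ERK, was at 10.07 in MLL-AF9, against 12.59, 12.40, 12.73 and 12.57 in RH-RAS. Dusp4, a nuclear phosphatase of the same family, was at 6.20 in MLL-AF9, against 8.81, 8.65, 9.21 and 9.32 in RH-RAS. Spry4, an inhibitor of receptor to RAS signalling, was at 3.50 in MLL-AF9, against 7.36, 8.36, 8.18 and 8.68 in RH-RAS. Etv5, an ETS factor made in response to ERK, was at 7.20 in MLL-AF9, against 10.79, 10.88, 11.19 and 11.37 in RH-RAS. For these 4 genes, by the brightest probe sets, all RH-RAS lines lay at least 2 log2 units above MLL-AF9 without overlap. The 4 probe sets of Spry4 differed by −4.65 to −0.69. Spred1 (−1.39), Etv4 (−1.16) and the cyclin Ccnd1 (−1.55) were also lower, whereas Fos was higher by 1.53 and Spry1, Spry2 and Dusp1, at −0.73, −0.83 and 0.29, were not called. The core of the pathway differed less, with 0 of 15 genes called and a median of 0.15. Nras was at 11.08 in MLL-AF9, against 11.38, 11.43, 11.53 and 11.34 in RH-RAS, and its 3 probe sets differed by −0.83 to −0.34. It is not known here whether they read the introduced NRAS.

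Of 24 proliferation genes 0 were higher and 1 was lower (Ccne2, a cyclin of S phase entry, −1.28). These counts are near the background shares of 7.66% higher and 5.87% lower. The differences ran from −1.28 to 0.09, with a median of −0.30. Mki67 was at 11.97 in MLL-AF9, against 12.75, 12.63, 12.89 and 12.51 in RH-RAS, a difference under 1. Of 21 genes of MYC and ribosome biogenesis 0 were called, with a median of 0.17. Myc itself was at 11.51 in MLL-AF9, against 11.84, 11.74, 11.94 and 11.87 in RH-RAS. Targets of p53 and inhibitors of the cell cycle were lower in 8 of 17 kept and higher in 2, with a median of −0.92. Over the 15 genes above the median in both genotypes, 7 were lower and 1 higher, with a median of −0.92. Cdkn1a, the p53 target that stops the cell cycle, was at 9.64 in MLL-AF9, against 11.20, 11.02, 11.31 and 10.99 in RH-RAS. Zmat3, an RNA-binding p53 target, was at 5.95 in MLL-AF9, against 8.38, 8.51, 8.51 and 9.17 in RH-RAS. Cdkn1b (−1.38), Sesn1 (−1.20), Phlda3 (−1.10), Cdkn2a (−1.05), Pmaip1 (−1.25) and Trp53inp1 (−1.49) were lower too, the last by 1 probe set and not by the median of its probe sets. Perp, a membrane effector of p53, was at 7.78 in MLL-AF9, against 2.85, 3.27, 3.37 and 3.29 in RH-RAS, and Gadd45a was higher by 1.35. Of the BCL2 family 1 of 13 was higher and 3 lower, with a median of 0.02. The higher one, the effector Bak1, differed by 1.34, and was not called by the median of its probe sets. Bcl2, which blocks apoptosis, was at 10.05 in MLL-AF9, against 11.94, 11.95, 12.10 and 11.80 in RH-RAS, and Bcl2l11, which encodes the killer BIM, differed by −1.0.

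In cholesterol biosynthesis 0 of 18 were higher and 5 lower, with a median of −0.60. They were Cyp51 (−1.69), Msmo1 (−1.50), Insig1 (−1.25), Lss (−1.21) and Hmgcs1 (−1.13). Cyp51 was at 8.74 in MLL-AF9, against 10.51, 10.58, 10.51 and 10.13 in RH-RAS. Among genes of amino acid and unfolded protein stress 0 of 20 were higher and 2 lower, near the background shares, with a median of 0.02. Those were Ddit4, an inhibitor of mTORC signalling (−2.60), and the stress factor Atf3 (−1.76).

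Interferon-stimulated genes were called in both directions, with 6 higher and 3 lower of 19 and a median of 0.39. Of the 19, 3 were kept through MLL-AF9 alone, Ifitm3 among them, and 1 through RH-RAS alone. Over the 15 genes above the median in both genotypes, 5 were higher and 2 lower, with a median of 0.42. Ifitm3 was at 12.11 in MLL-AF9, against 4.00, 4.98, 4.90 and 5.93 in RH-RAS. Oas1a, which makes the activator of an antiviral RNase, was at 9.81 in MLL-AF9, against 7.18, 6.79, 6.77 and 7.12 in RH-RAS. Ifit2 (2.42) and the RNA sensor Ifih1 (2.12) were higher, while Usp18 (−1.92) and Stat2 (−1.86), both of which act in the interferon response pathway itself, were lower. Among inflammatory and NF-kB genes 2 of 16 were higher and 4 lower, with a median of −0.36. Over the 13 genes above the median in both genotypes, 2 were higher and 2 lower, with a median of −0.35. The chemokine Ccl9 was at 12.37 in MLL-AF9, against 8.24, 8.37, 8.19 and 10.13 in RH-RAS. Its relative Ccl3 was at 7.98 in MLL-AF9, against 9.97, 9.63, 10.21 and 10.45 in RH-RAS. Ccl6 was higher by 2.37, and Ccl5 (−1.85), Relb (−1.53) and Icam1 (−1.02) were lower.

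Of the erythroid list 0 of 6 kept were higher and 1 lower, Car2, a carbonic anhydrase, with a median of −0.17. Of the megakaryocyte list 2 of 10 were higher, both kept through MLL-AF9 alone, and 2 lower, with a median of 0.19 over the 10 and 0.0224 over the 8 genes above the array median in both genotypes. Thbs1, a thrombospondin of platelets and monocytes, was at 10.31 in MLL-AF9, against 4.17, 4.55, 4.47 and 4.41 in RH-RAS, and F2r, the thrombin receptor, was at 6.22 in MLL-AF9, against 9.71, 9.36, 9.62 and 8.78 in RH-RAS. Of the stromal list 2 of 6 kept were higher, Fn1 (2.89) and Epcam (1.19, with its other probe set at −0.68 and no call by their median), and 1 was lower, Pecam1 (−1.01), with a median of 0.54 over the kept genes and 0.05 over all 15 measured. Among leukocyte integrins and adhesion genes 5 of 20 were higher and 3 lower, with a median of 0.12. Itgb5 (2.78), Itga5 (1.42), Itgam (1.18), Itgal (1.09) and Itga1 (1.05) were higher, and Alcam (−1.84), Itgax (−1.64) and Itgb7, the partner in gut homing (−1.55), were lower. Cdh1, E-cadherin, was at 6.40 in MLL-AF9, against 8.82, 8.93, 9.67 and 6.26 in RH-RAS, and was not called because line 4 lay below MLL-AF9. Without line 4 the difference was −2.74 and Cdh1 was called lower.

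**Figure D5:**
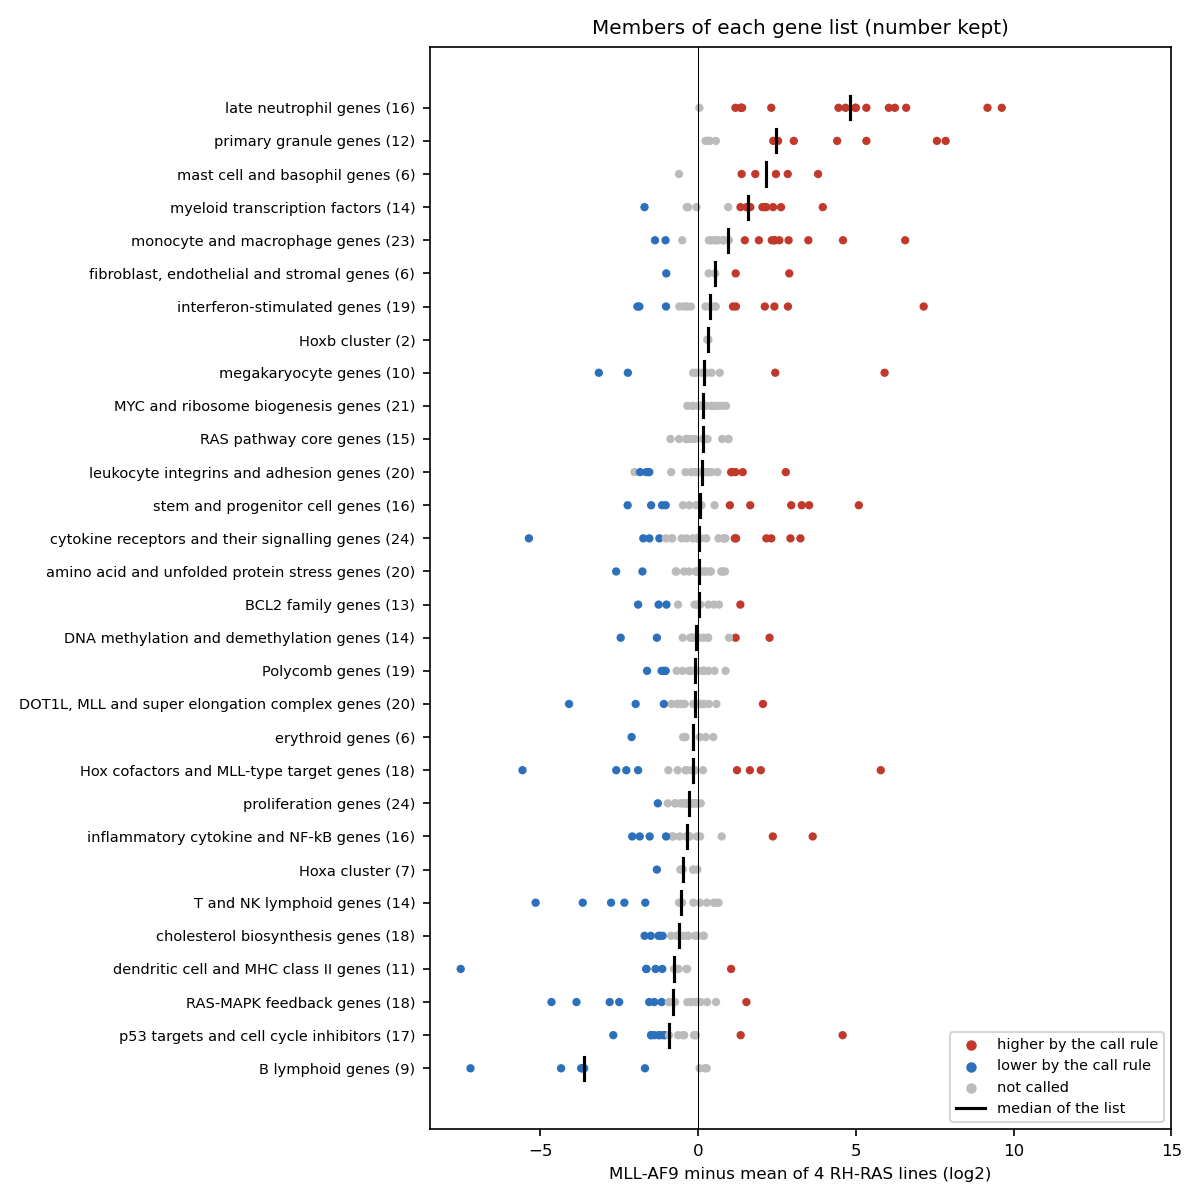
Difference between MLL-AF9 and the mean of the 4 RH-RAS lines (horizontal axis, log2) for each kept member of the 30 gene lists, with a bar at each median and the number kept in parentheses. The late neutrophil list has the highest median, 4.83, and the B lymphoid list the lowest, −3.61, while all members of the RAS pathway core and MYC lists lie inside 1 log2 unit of 0.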

How the data were processed

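Each sample of cultured cells gave total RNA for 1 Affymetrix mouse expression array. Per the submitters' processing notes the authors used RMA, and what they deposited is a table of probe set intensities on the log2 scale. The RMA version is not given in the sources used here. Array medians lay between 5.72 and 5.82 and sorted columns differed by at most 0.163, so nothing was normalised again. RMA gives no detection call, and 1 array of MLL-AF9 limits the precision.

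The annotation table paired 34958 of 45101 probe sets with 1 gene symbol, 932 with several and 9211 with none, and 99.4% of the first had an Entrez identifier in the RefSeq gene table. A gene with several probe sets, as 9012 genes had, was read from the one that was brightest on average over the 10 arrays. A gene was called if the MLL-AF9 value differed by at least 1 from the mean of the 4 RH-RAS lines and lay outside their range. The rule was tried on simulated arrays drawn from the RH-RAS means and SDs, with known shifts added to some genes. That setting holds no spread between MLL-AF9 lines, so it checks only that the rule is computed as stated. No p-value was computed, as MLL-AF9 has 1 array, and whether the RH-RAS lines came from separate animals is not given. Named genes are the 15 highest and 15 lowest called, up to 4 per gene list by size of difference, and 14 regulators. The members and lists were chosen with earlier results of these data known, and some further genes of each list were named after their values were seen. The alternatives were another choice of probe set, other filters, a shift to equal medians, larger differences and leaving out each RH-RAS line. Python 3.11.15, pandas 2.3.3 and numpy 2.4.6 were used.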

Additional observations from a re-analysis of the deposited data

Results flagged for a closer look

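One RH-RAS line stood far from the other 3 in 23 of 196 values examined, and in 21 of the 23 it was line 4. Chance meets the rule used in about 1 group in 20 where groups are independent. The 196 values come from the same 4 arrays and many were picked by their differences, so their count cannot be read against that rate. Line 4 was the high one for Csf1r (10.13), Ccl9 (10.13), F13a1 (8.15), Ms4a6d (7.85), Prtn3 (12.20), Csf3r (6.68), Ddx4 (9.83), Slc37a3 (9.57) and Zmat3 (9.17). It was the low one for Hoxa9 (12.37), Mllt3 (9.63), Aff3 (10.86), Nfe2 (7.87), Rasgrp2 (9.79), Tfrc (12.79), Basp1 (9.35), Cyp51 (10.13) and Lss (9.33). Ccne2 was low in line 1 (10.44) and Ngp in line 3 (5.10). The median difference of MLL-AF9 from line 4 alone also stood apart from those from the other 3 lines for the Hoxa cluster (−0.012), the RAS-MAPK feedback genes (−0.51) and the inflammatory and NF-kB genes (−0.30). Of the 135 named genes that were called, 135 were still called without line 4. Leaving out a line cannot widen the range of the lines, so only the size of the difference could have undone a call.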

How the results depend on the processing

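No paired analysis was possible because MLL-AF9 is a single array with no line number to share with the RH-RAS lines. Leaving out each RH-RAS line in turn gave 879 to 941 higher and 670 to 715 lower genes. Requiring a difference of 2 gave 335 higher and 208 lower. Requiring both genotypes above the median, chosen after seeing the data, gave 577 and 506. Of 135 named genes called, 122 were still called with the median of all probe sets (lost were Arpp21, Asxl1, Bak1, Cbx8, Dnmt3a, Ell2, Epcam, Grb10, Hoxa10, Ikzf2, Mecom, Tet1 and Trp53inp1), 134 with the probe set brightest on the 5 arrays (Dnmt3a lost), 134 without line 1 (Pecam1 lost) and 132 without line 3 (Bcl2l11, Bmi1 and Pecam1 lost). List medians moved as follows, and the cause was not tested beyond what each setting does. With both genotypes above the median they were 0.13 for B lymphoid, −0.18 for DNA methylation, 0.17 for T and NK, 1.18 for late neutrophil, 0.22 for integrin, 2.47 for mast cell, 0.0224 for megakaryocyte, 1.34 for myeloid factor, 1.47 for primary granule and −0.012 for stem cell genes. With at least 2 of the 10 arrays above the median they were −1.68 for B lymphoid, −0.34 for RAS-MAPK feedback, 4.68 for late neutrophil and 1.92 for mast cell genes. With arrays shifted to the same median they were −0.069 for BCL2, −0.15 for DNA methylation, −0.18 for DOT1L complex, −0.26 for Hox cofactor, 0.084 for MYC, −0.052 for cytokine receptor, 0.45 for stromal, −0.45 for inflammatory, 4.74 for late neutrophil, −0.39 for proliferation and −0.012 for stem cell genes. With the median of all probe sets they were −3.01 for B lymphoid, −0.48 for BCL2, −0.27 for DNA methylation, −0.19 for DOT1L complex, −0.77 for Hox cofactor, −0.27 for Hoxa, 0.11 for MYC, −0.25 for Polycomb, −0.16 for RAS core, 4.98 for late neutrophil, −0.15 for integrin, 1.61 for mast cell and −0.41 for proliferation genes. With no filter they were −0.31 for B lymphoid, −0.12 for Hox cofactor, −0.24 for Hoxa, 0.20 for Hoxb, −0.34 for RAS-MAPK feedback, 0.10 for erythroid, 0.0498 for stromal, −0.26 for inflammatory, 4.56 for late neutrophil, 0.17 for mast cell, −0.63 for p53 and 0.21 for stem cell genes. With the probe set brightest on the 5 arrays the Hox cofactor median was −0.28. Leaving out 1 line gave ranges of −0.0825 to −0.0399 for DNA methylation, 0.11 to 0.19 for MYC, −0.23 to −0.026 for Polycomb, −0.45 to −0.33 for inflammatory and −0.95 to −0.78 for p53 genes. The directions of the B lymphoid, T and NK, BCL2, RAS core, cytokine receptor, integrin, erythroid and stem cell medians therefore depend on the filter, the scaling or the probe set in at least 1 of these settings.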

Other observations

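Other genes known from eosinophils, picked after Prg2, Epx and Prg3 had been seen, did not share 1 pattern. Siglecf, an eosinophil surface lectin, was at 8.22 in MLL-AF9, against 6.63, 6.56, 6.93 and 6.35 in RH-RAS. The cytokine receptor Il5ra was at 4.49 in MLL-AF9 and 4.08 to 4.33 in RH-RAS, and the chemokine receptor Ccr3 was at 3.40 in MLL-AF9 and 2.95 to 3.37 in RH-RAS, all below the array median.

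Xist, the transcript that silences an X chromosome, was at 12.94 in MLL-AF9 and 12.52 to 13.48 in RH-RAS. The Y-linked genes Eif2s3y, Kdm5d and Uty lay below the array median on the 5 arrays, at 2.80, 4.55 and 3.96 in MLL-AF9.

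Of the higher genes with several probe sets, 208 of 438 had another probe set called the same way and 0 the opposite way. Of the lower genes, 261 of 435 had another called the same way and 1, Ctse, the opposite way.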
